A study of Mus musculus with 70 samples.

Results

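Cholesterol synthesis, its control and sterol export were followed through 33 named genes of 24321 measured, in 70 RNA-seq libraries of sorted mouse spleen cells. The 33 genes were a fixed list, chosen with earlier results of these data known. Their transcripts were found by name in the deposited count table. The list comprises 18 enzymes of the synthesis pathway, 5 genes of the SREBP control system, 6 liver X receptor (LXR) genes and targets, and 4 genes of sterol transport and storage. The values were estimated counts from RSEM, given here as CPM, counts scaled to a common library size with TMM factors.

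The mice were 8 to 10 weeks old and had received PBS in the peritoneum 5 h before the spleens were taken. NOD mice, the autoimmune diabetes strain, were set against B6g7 mice, C57BL/6 animals named for the g7 MHC haplotype of NOD, in type 1 conventional dendritic cells (cDC1, 6 and 6 libraries), type 2 conventional dendritic cells (cDC2, 6 and 6), monocyte-derived dendritic cells (moDC, 5 and 6), plasmacytoid dendritic cells (pDC, 3 and 3) and monocytes (3 and 3). NOD Rag1-/- mice were set against B6 Rag1-/- mice in cDC1, cDC2 and pDC (3 and 3 each) and in moDC (3 and 2). Rag1-/- mice have no mature B or T cells and keep their dendritic cells and monocytes. Their controls are labelled B6 and not B6g7, so strain and MHC background cannot be told apart in that set.

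The labels do not say whether libraries of a group came from separate animals, so p-values measure the spread between libraries only. Depth was 14671299 to 20642503 counts in the 23 Rag1-/- libraries and 12806956 to 19743162 in the 47 NOD and B6g7 libraries. The cDC1 and pDC marker lists were highest in their own sorts, and the shared monocyte and moDC list was highest in monocytes. The cDC2 list did not set cDC2 apart, since it was about as high in moDC and pDC. In cDC1 the 13 cDC1 markers summed to 9050 to 11500 CPM in NOD and 9230 to 9850 CPM in B6g7 libraries. Erythroid markers were higher in NOD than in B6g7 in all 5 sorts, with 11 of 11 called in cDC1 and moDC, 10 of 11 in cDC2, 3 of 11 in pDC and 1 of 11 in monocytes. In bulk libraries of this kind, fewer cells of a type and less RNA per cell cannot be told apart.

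Cells make cholesterol from acetyl-CoA along a chain of enzymes that are switched on together. When membrane sterol is low, SCAP escorts the SREBP transcription factors to the Golgi, where they are cut and released to the nucleus, and when sterol is high the INSIG proteins hold them back in the endoplasmic reticulum. Oxysterols, which accumulate when cholesterol is plentiful, activate the LXR receptors, which induce the export pumps ABCA1 and ABCG1 and the ligase MYLIP, which removes the LDL receptor. In dendritic cells and macrophages these programmes are known to respond to interferon and to uptake of dead cells.

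Promoter sequence is shown for 4 genes that the strain results below turn on. Hmgcs1 and Cyp51 are synthesis enzymes that were lower in NOD cDC1, Sc5d is the enzyme that was lower in NOD in every Rag-sufficient sort, and Insig1 is the sterol-sensing brake that was higher in 4 of them. The 250 bases before each transcript start are given 5′ to 3′ on the gene's strand, from RefSeq on GRCm38.p6. Hmgcs1 lies at chr13:119690101-119690350 (plus strand), Cyp51 at chr5:4104698-4104947 (minus strand), Sc5d at chr9:42264301-42264550 (minus strand) and Insig1 at chr5:28071162-28071411 (plus strand). Capitals mark the sterol regulatory element TCACNCCAC and the NF-Y box CCAAT on either strand. The genome build behind the counts was not stated.
Hmgcs1: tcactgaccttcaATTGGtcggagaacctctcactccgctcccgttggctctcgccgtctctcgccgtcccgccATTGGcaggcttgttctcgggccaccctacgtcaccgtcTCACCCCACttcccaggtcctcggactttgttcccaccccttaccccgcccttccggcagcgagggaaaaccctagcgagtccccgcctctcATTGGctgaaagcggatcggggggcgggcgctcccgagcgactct
Cyp51: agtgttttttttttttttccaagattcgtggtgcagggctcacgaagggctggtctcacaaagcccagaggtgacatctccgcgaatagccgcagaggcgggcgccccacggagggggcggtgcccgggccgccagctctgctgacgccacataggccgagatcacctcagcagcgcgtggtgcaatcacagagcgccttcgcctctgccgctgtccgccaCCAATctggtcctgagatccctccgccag
Sc5d: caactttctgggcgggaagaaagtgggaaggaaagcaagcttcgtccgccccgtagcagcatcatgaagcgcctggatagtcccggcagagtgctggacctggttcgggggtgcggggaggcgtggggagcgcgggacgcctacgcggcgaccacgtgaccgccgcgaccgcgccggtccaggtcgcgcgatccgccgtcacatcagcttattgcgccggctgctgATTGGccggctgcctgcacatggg
Insig1: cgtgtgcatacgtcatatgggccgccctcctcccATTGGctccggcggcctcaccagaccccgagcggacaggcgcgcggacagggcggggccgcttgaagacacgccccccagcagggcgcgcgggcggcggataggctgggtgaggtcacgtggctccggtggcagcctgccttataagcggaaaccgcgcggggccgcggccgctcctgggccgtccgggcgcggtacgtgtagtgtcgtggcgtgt

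The TCACNCCAC element, searched on both strands, was found in 1 of the 27 member genes that have a promoter window (250 bases before to 50 after the start), and in 1.24% of all 32851 windows. That member was Hmgcs1, 137 bases before the start. Only this form of the element was searched, so elements with other letters would be missed. The NF-Y box was found in 22 of the 27, and in 37.4% of all windows. The motifs did not overlap each other in the sequences shown. For the LXR response element, searched on both strands as a direct repeat of GGTNA with 5 bases between the copies, matches lay in Abca1, 67 bases before the start, and in Srebf1, 182 bases before, against 0.718% of all windows. Abca1 encodes a cholesterol export pump and Srebf1 the SREBP that mainly drives fatty acid genes, and both are classical LXR targets. Their matches, in capitals, are shown with flanking bases on the gene's strand, at chr4:53159940-53159969 (minus strand) for Abca1 and chr11:60210631-60210660 (minus strand) for Srebf1.
Abca1: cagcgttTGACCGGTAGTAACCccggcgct
Srebf1: acgacagTGACCGCCAGTAACCccagcgcg

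Of the 18 synthesis genes 10 were lower, 0 were higher and 8 did not pass the test in NOD against B6g7 cDC1, with a median log2 difference of -0.47, against -0.01 over all genes tested. Of all 33 members 1 was higher and 12 were lower, where 20.7% of all genes tested were called (edgeR quasi-likelihood test, Benjamini-Hochberg adjusted p under 0.05), 10.5% higher and 10.3% lower. The same comparison within each sort date called 12 members on 10.26.2015 (11.4% of all genes) and 11 on 01.05.2016 (16.2%).

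Sc5d, which introduces a double bond into the sterol ring shortly before the end of the pathway, had 10.5, 14.1 and 19.3 CPM (lowest, median and highest) in the 6 NOD cDC1 libraries, against 41.3, 61.4 and 70.1 CPM in the 6 B6g7 libraries. The groups were far from overlapping. The log2 difference was -2.06 ± 0.13 (SE; adjusted p = 4.8e-17, edgeR), the largest of any member in cDC1. Sqle, the squalene epoxidase, had 10, 16.2 and 17.5 CPM in NOD cDC1, against 28.8, 32.7 and 53.8 CPM in B6g7 cDC1. Every NOD library was below every B6g7 library, with a log2 difference of -1.23 ± 0.21 (adjusted p = 2.2e-05, edgeR). Fdft1, the squalene synthase, had 9.53, 15.3 and 29 CPM in NOD, against 19.1, 35.6 and 55.9 CPM in B6g7 cDC1. Here the groups overlapped when the dates were pooled, and the log2 difference was -1.15 ± 0.18 (adjusted p = 4.9e-06, edgeR).

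Lower levels were called at several steps of the chain in cDC1. Near its start, Hmgcs1, the HMG-CoA synthase, averaged 27.4 ± 7.97 CPM in NOD and 58.5 ± 12.3 CPM in B6g7 cDC1 (SD, n = 6 each), a log2 difference of -1.11. The isomerase Idi1 averaged 28.4 ± 5.41 CPM in NOD and 61.6 ± 16.5 CPM in B6g7, a difference of -1.09. For Cyp51, the lanosterol demethylase, the means were 28.5 ± 3.36 CPM in NOD and 63 ± 11 CPM in B6g7, a difference of -1.14. The groups did not overlap for these 3 enzymes. The methyl oxidase Msmo1 (-0.97), the decarboxylase Mvd (-0.58), the kinase Pmvk (-0.50) and the farnesyl diphosphate synthase Fdps (-0.45) were lower as well. Fdps was at the threshold and was not called in 18 of 22 alternative settings, among them leaving out any 1 library other than B6g7 library 5 or NOD library 1, with adjusted p-values of up to 0.81. With the replicate block, a term for each replicate number within a sort, Fdps (adjusted p = 0.18, edgeR) and Mvd (adjusted p = 0.061, edgeR) were not called. Mvd was also lost on 01.05.2016 alone, and Fdps on either date alone. The 8 enzymes that did not pass the test had log2 differences between -0.24 (Mvk, Lss) and 0.34 (Acat2, Tm7sf2).

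Among the control and export genes of cDC1, Insig2, the INSIG form that does not depend on SREBP for its own expression, was lower in NOD by a log2 difference of -0.68 (-1.03 on 10.26.2015 alone, and -0.33 and not called on 01.05.2016 alone, adjusted p = 0.3, edgeR), and the transcripts of Srebf1, Srebf2 and Scap had differences of -0.07, -0.23 and -0.01, none of them past the test. Insig1 had 19.4, 26.6 and 35 CPM in NOD, against 20, 22 and 25.6 CPM in B6g7 cDC1, with overlap, and was not called (0.28 ± 0.12, adjusted p = 0.093, edgeR). Abcg1, which passes cholesterol to HDL, averaged 68.9 ± 8.89 CPM in NOD and 108 ± 11.3 CPM in B6g7 cDC1 (SD, n = 6 each). Its groups did not overlap, and the log2 difference was -0.65. Mylip, the ligase that directs the LDL receptor to degradation, was the 1 member that rose. It had 22.5, 44.6 and 67.6 CPM in NOD cDC1, against 9.43, 20.6 and 31.7 CPM in B6g7 cDC1, with a log2 difference of 1.16 ± 0.14 (adjusted p = 5.5e-09, edgeR). Mylip and Abcg1, both LXR targets, thus had opposite signs. Erythroid markers summed to 2380 to 12900 CPM in NOD and 142 to 2350 CPM in B6g7 cDC1 (11 of 11 higher). B cell markers summed to 41 to 616 CPM in NOD and 69.3 to 107 CPM in B6g7 (7 of 9 higher), T cell markers to 29 to 102 CPM in NOD and 11.2 to 30.4 CPM in B6g7 (6 of 9 higher), and neutrophil markers to 9.84 to 290 CPM in NOD and 0.464 to 6.56 CPM in B6g7 (3 of 11 higher, with Elane and Mpo at 0 in B6g7). Their part in these differences was not tested.

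**Figure D1:**
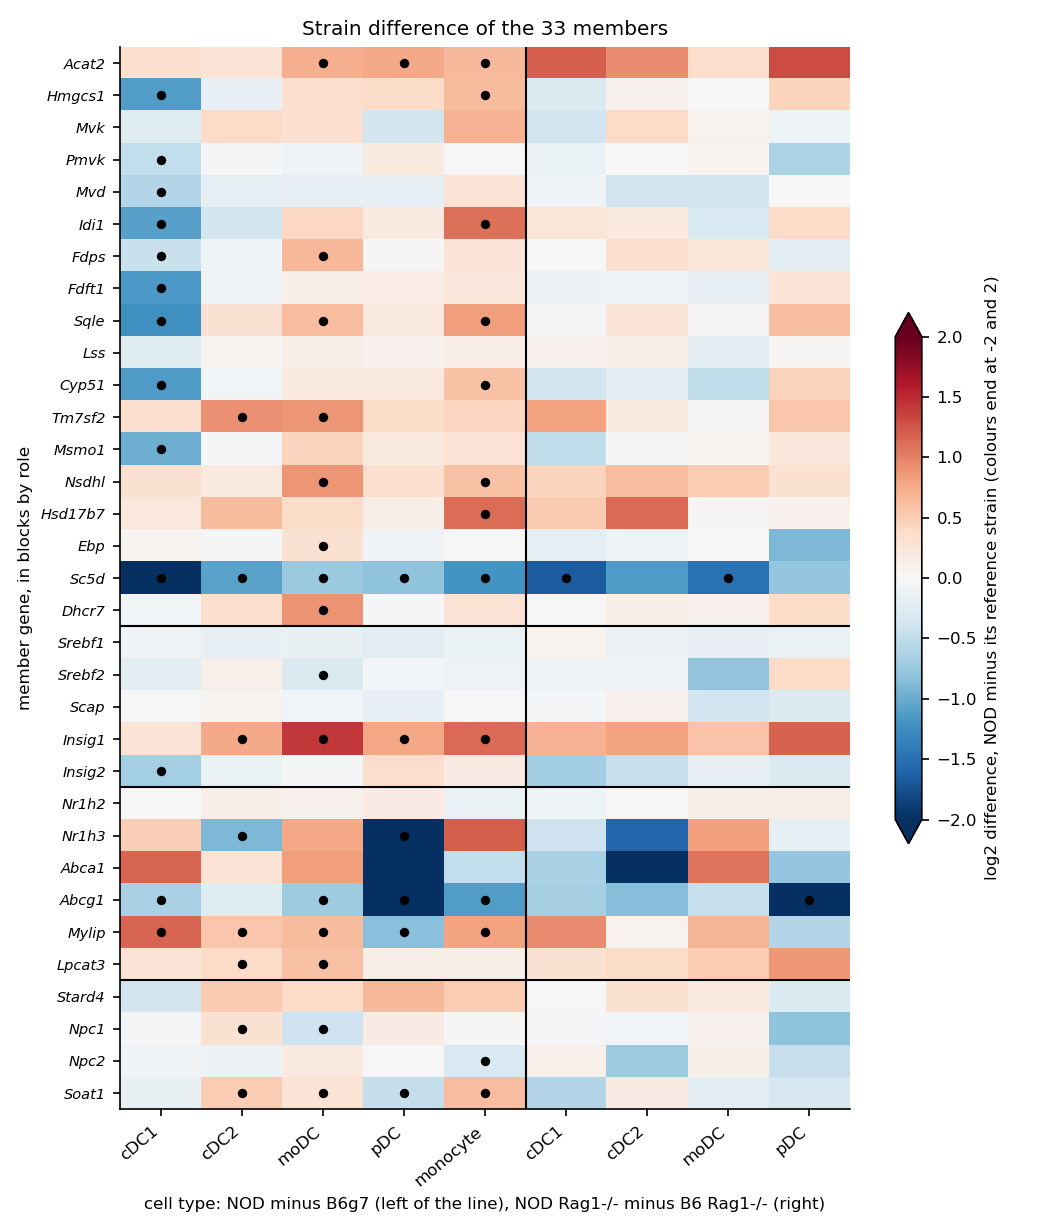
Log2 difference of each of the 33 members (rows, in blocks by role) in each strain comparison (columns), NOD minus B6g7 left of the line and NOD Rag1-/- minus B6 Rag1-/- right of it. Black points mark adjusted p under 0.05 (edgeR). The cDC1 column has 10 synthesis genes called lower, the moDC and monocyte columns each have 15 of the 18 above 0, with 7 called higher, and Sc5d is blue in all 9 columns.

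In cDC2 the synthesis genes moved little: 1 was higher and 1 lower of 18, with a median log2 difference of -0.03. Of the 33 members 6 were higher and 2 lower in NOD, where 22% of all genes were called, 11.7% higher and 10.3% lower. On 10.26.2015 alone 3 members were called (12.7% of all genes), and on 01.05.2016 alone 6 (17.2%). Sc5d had 13.4, 14.2 and 19.3 CPM in NOD cDC2, against 27.2, 31.1 and 40.7 CPM in B6g7 cDC2. The groups did not overlap, and the log2 difference was -1.07 ± 0.13 (adjusted p = 5.5e-09, edgeR). Tm7sf2, a sterol reductase present at low level, was the synthesis gene that rose, by 0.91, and was not called without NOD library 1 or 5, on 10.26.2015 alone or without libraries of low RNA integrity.

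Insig1, the SREBP-induced INSIG, had 17.4, 28.5 and 35.6 CPM in NOD cDC2, against 12.7, 14.5 and 21.5 CPM in B6g7 cDC2, a log2 difference of 0.76 ± 0.12 (adjusted p = 4.5e-06, edgeR). The groups overlapped when the dates were pooled. Mylip had 17, 31.1 and 47.4 CPM in NOD, against 12.3, 20 and 31.9 CPM in B6g7 cDC2, with a log2 difference of 0.56 ± 0.13 (adjusted p = 0.0014, edgeR). The NOD and B6g7 values of Mylip overlapped, and it was not called on 10.26.2015 alone (0.51, adjusted p = 0.18, edgeR). Nr1h3, which encodes LXR alpha, had 1.64, 4.33 and 6.3 CPM in NOD, against 5.75, 8.19 and 10.4 CPM in B6g7 cDC2. Its log2 difference of -0.90 ± 0.32 (adjusted p = 0.04, edgeR) did not pass under 14 of 23 alternative settings, among them the replicate block (adjusted p = 0.069) and leaving out B6g7 library 2, 4, 5 or 6 or NOD library 2, 4, 5 or 6. The adjusted p-values lay between 0.0092 and 0.59. Smaller rises were called for Soat1, which esterifies cholesterol for storage (0.51), for the phospholipid enzyme and LXR target Lpcat3 (0.39) and for the lysosomal exporter Npc1 (0.31). Soat1 was at 0.25 and not called on 10.26.2015 alone, Lpcat3 was at 0.26 and not called on 01.05.2016 alone, and Npc1 was called on neither date alone (0.41 on 10.26.2015 and 0.20 on 01.05.2016) nor without B6g7 library 2. Markers of other cells moved with the strain in cDC2. Neutrophil markers summed to 119 to 2010 CPM in NOD and 19.8 to 139 CPM in B6g7 cDC2 (10 of 11 higher), B cell markers to 174 to 827 CPM in NOD and 99.7 to 193 CPM in B6g7 (8 of 9 higher), and T cell markers to 93.8 to 200 CPM in NOD and 58.3 to 163 CPM in B6g7 (7 of 9 higher, 1 lower). Of the cDC1 markers 7 of 13 were higher and of the red pulp macrophage markers 3 of 11 lower. Their part was not tested.

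In NOD moDC 7 of 18 synthesis genes were higher, 1 was lower and 10 did not pass the test, with a median log2 difference of 0.35, against 0 over all genes. Of the 33 members 11 were higher and 4 lower, where 30.3% of all genes were called, 15.6% higher and 14.7% lower. The dates gave different counts: among libraries of 01.05.2016 alone 19 members were higher and 2 lower, with a median over the members of 0.48 (25.6% of all genes called, 14.5% higher and 11.1% lower), and among those of 10.26.2015 alone 3 were higher and 3 lower, with a median of -0.04 (19.5% of all genes called, 7.88% higher and 11.6% lower). Acat2, Dhcr7, Ebp, Fdps, Mylip, Sc5d, Soat1, Sqle, Srebf2 and Tm7sf2 were not called on 10.26.2015 alone, and Npc1 and Srebf2 were not called on 01.05.2016 alone.

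Insig1 had 41.7, 42.5, 80.3, 60.7 and 64.9 CPM in the 5 NOD moDC libraries, against 17.2, 18.9 and 26.9 CPM (lowest, median and highest) in the 6 B6g7 libraries. The lowest NOD library was above the highest B6g7 library. The log2 difference was 1.42 ± 0.13 (adjusted p = 3.5e-12, edgeR). Nsdhl, a sterol decarboxylase, had 31.9, 37.3, 29.2, 29 and 27.7 CPM in NOD, against 12.8, 16.6 and 23 CPM in B6g7 moDC. Again there was no overlap, and the difference was 0.88 ± 0.13 (adjusted p = 5.2e-07, edgeR). Dhcr7, which makes cholesterol in the last step of one branch, had 10.7, 6.43, 20.8, 26.3 and 18 CPM in NOD, against 3.94, 8.23 and 12.8 CPM in B6g7 moDC. Both strains were higher on 01.05.2016, and the difference was 0.90 ± 0.16 (adjusted p = 3.5e-05, edgeR). On 10.26.2015 alone Dhcr7 did not pass the test (1.05, adjusted p = 0.055, edgeR).

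Acat2, the cytosolic thiolase at the head of the chain, averaged 28.1 ± 4.12 CPM in NOD and 16.9 ± 3.66 CPM in B6g7 moDC (SD, n = 5 and 6), without overlap, a log2 difference of 0.73. Tm7sf2 (0.88), Fdps (0.67), Sqle (0.61) and Ebp (0.30), the sterol isomerase, were higher as well. On 10.26.2015 alone Sqle was at -0.02 and Fdps at 0.01. Sqle was not called in 9 of 21 alternative settings, among them leaving out B6g7 library 2, 5 or 6 or NOD library 2, 3 or 5. Tm7sf2 was lost without NOD library 3 and Ebp without NOD library 2. Sc5d went the other way, with 20.2, 24.1, 16.9, 16.9 and 14.1 CPM in NOD, against 22, 28.4 and 43.7 CPM in B6g7 moDC. Its groups overlapped by 1 NOD library, and the log2 difference was -0.74 ± 0.13 (adjusted p = 2.1e-05, edgeR), which did not pass on 10.26.2015 alone (adjusted p = 0.14).

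In the LXR group of moDC, Abcg1 had 50.2, 68.1, 52.4, 51.2 and 46 CPM in NOD, against 71.4, 89.7 and 108 CPM in B6g7 moDC, a log2 difference of -0.71 ± 0.14 (adjusted p = 9.4e-05, edgeR) with no overlap. Mylip (0.64) and Lpcat3 (0.59) were higher. Nr1h3 had 49.5, 44.4, 60.5, 44.1 and 51.8 CPM in NOD, against 17.4, 31.9 and 43.5 CPM in B6g7 moDC. The groups did not overlap, but the log2 difference of 0.77 ± 0.32 did not pass (adjusted p = 0.063, edgeR). Abca1, with means of 19 ± 3.75 CPM in NOD and 11.3 ± 6.63 CPM in B6g7, did not pass either (0.83 ± 0.48). Npc1 (-0.41) and Srebf2 (-0.29) were lower and Soat1 (0.28) higher. Soat1 was no longer called in 13 and Srebf2 in 9 of 21 alternative settings. Srebf2 was at 0.03 with the replicate block, where NOD library 3 (01.05.2016) and B6g7 library 3 (10.26.2015) come from different sort dates. The Srebf2 call was lost without B6g7 library 6 or NOD library 1 or 3. Soat1 was lost without B6g7 library 1, 3, 4, 5 or 6 or NOD library 3, 4 or 5. Without NOD library 3, 11 members were called in moDC.

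Markers of other cells moved with the strain in moDC. B cell markers summed to 462 to 2760 CPM in NOD and 82.5 to 345 CPM in B6g7 moDC (9 of 9 higher). Neutrophil markers summed to 543 to 1850 CPM in NOD and 3.32 to 236 CPM in B6g7 (10 of 11 higher, with Camp and Elane at 0 in the B6g7 libraries). T cell markers summed to 83 to 262 CPM in NOD and 30.9 to 77.7 CPM in B6g7 (7 of 9 higher). The cDC1 markers summed to 1020 to 2120 CPM in NOD and 778 to 942 CPM in B6g7 (9 of 13 higher), and erythroid markers to 2680 to 18700 CPM in NOD and 62.2 to 1700 CPM in B6g7. Their part in the moDC differences of the sterol genes was not tested.

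In NOD monocytes 7 of 18 synthesis genes were higher, 1 was lower and 10 did not pass the test, with a median log2 difference of 0.36, and of the 33 members 10 were higher and 3 lower, where 15.1% of all genes were called, 7.80% higher and 7.26% lower. B6g7 monocyte library 2 was the lowest of its 3 for 14 of the 18 synthesis genes, and without it 6 members were called instead of 13. Insig1 had 117, 105 and 113 CPM in NOD monocytes, against 59.3, 41.5 and 50.4 CPM in B6g7 monocytes. The NOD libraries were all higher, with a log2 difference of 1.14 ± 0.16 (adjusted p = 1e-06, edgeR). Sc5d had 18.8, 18.3 and 17.7 CPM in NOD, against 45.8, 35.2 and 43.8 CPM in B6g7 monocytes, all NOD libraries being lower, and the difference was -1.19 ± 0.18 (adjusted p = 1.7e-06, edgeR).

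Hsd17b7, a ketosteroid reductase of the pathway, had 6.44, 3.58 and 7.47 CPM in NOD, against 3.58, 2.58 and 1.9 CPM in B6g7 monocytes. The difference was 1.12 ± 0.35 (adjusted p = 0.022, edgeR), and it was not called in 7 of 14 alternative settings, with adjusted p-values between 0.0089 and 0.13 over them, among them leaving out B6g7 library 2 or 3 or NOD library 1 or 3. Idi1 averaged 82.3 ± 3.85 CPM in NOD and 38.5 ± 15.7 CPM in B6g7 monocytes (SD, n = 3 each), a log2 difference of 1.10 without overlap. Sqle (0.84), Acat2 (0.65), Hmgcs1 (0.63), Cyp51 (0.58) and Nsdhl (0.58) were higher too, none with overlap between the strains. Acat2 was lost without any library but B6g7 library 1, Sqle without B6g7 library 2 or 3 or NOD library 1 or 2, Hmgcs1 without B6g7 library 2 or NOD library 1 or 2, Nsdhl without B6g7 library 2 or NOD library 2 or 3, and Cyp51 without B6g7 library 2 or NOD library 2. Abcg1 had 30.1, 16.1 and 24.1 CPM in NOD, against 51.9, 41.7 and 58.7 CPM in B6g7 monocytes, so every NOD library was lower. The log2 difference was -1.12 ± 0.19 (adjusted p = 2e-05, edgeR). Mylip (0.80) and Soat1 (0.62) were higher and Npc2 (-0.30), the soluble lysosomal partner of Npc1, lower, the Npc2 call being lost without any 1 of the 6 libraries. Nr1h3 had 18.5, 24.3 and 17.6 CPM in NOD, against 9.28, 4.83 and 12.1 CPM in B6g7 monocytes, and did not pass (1.21 ± 0.43, adjusted p = 0.054, edgeR). Neutrophil markers summed to 250 to 398 CPM in NOD and 1760 to 8190 CPM in B6g7 monocytes (6 of 11 lower, with Camp at 0 in the NOD libraries), and their part was not tested.

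In NOD pDC 3 of the 6 LXR genes were lower, 0 were higher and 3 did not pass the test, with a median log2 difference of -1.52, while 1 synthesis gene was higher and 1 lower. The LXR median includes Abca1, which had too few counts in pDC to compare. Of the 33 members 2 were higher and 5 lower in NOD, where 12.6% of all genes were called, 4.63% higher and 8.01% lower. Abcg1 had 1.56, 0.763 and 1.62 CPM in NOD pDC, against 20.6, 13.7 and 26.2 CPM in B6g7 pDC. Every NOD library was far below every B6g7 library, and the log2 difference was -3.93 ± 0.26 (adjusted p = 1.1e-15, edgeR). Nr1h3 had 0.593, 0.61 and 1.06 CPM in NOD, against 11.5, 9.27 and 9.19 CPM in B6g7 pDC, a log2 difference of -3.72 ± 0.57 (adjusted p = 4.2e-06, edgeR), again with the groups far apart. Both held in every alternative setting tried.

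Mylip had 6.38, 3.59 and 3.98 CPM in NOD, against 7.1, 10.2 and 7.7 CPM in B6g7 pDC. All NOD values were lower, although one came close, and the difference was -0.84 ± 0.22 (adjusted p = 0.0054, edgeR). The call was lost without B6g7 library 2 or NOD library 2. In the other 4 sorts Mylip was higher in NOD. Abca1 was at 0, 0.381 and 0 CPM in NOD, against 0.979, 0.148 and 0.745 CPM in B6g7 pDC, too few counts to compare. The receptor LXR beta, Nr1h2, averaged 51.2 ± 2.26 CPM in NOD and 45.9 ± 1.73 CPM in B6g7 pDC and did not pass (0.16 ± 0.12).

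Markers of macrophages and monocytes moved with these genes. Red pulp macrophage markers summed to 99.9 to 149 CPM in NOD and 505 to 717 CPM in B6g7 pDC (11 of 11 lower), and monocyte and moDC markers to 2150 to 2330 CPM in NOD and 8900 to 9100 CPM in B6g7 pDC (4 of 11 lower and 3 higher). No marker of either list was at 0 in all libraries of a strain, and their part in the Abcg1 and Nr1h3 differences was not tested.

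Sc5d and Insig1 in pDC repeated their signs of the other sorts. Sc5d had 83.4, 87.1 and 79.4 CPM in NOD, against 172, 139 and 125 CPM in B6g7 pDC, a log2 difference of -0.80 ± 0.17 (adjusted p = 0.00057, edgeR). No library of one strain reached the range of the other. Insig1 had 164, 161 and 187 CPM in NOD, against 102, 106 and 90.3 CPM in B6g7 pDC, a difference of 0.78 ± 0.16 (adjusted p = 0.00048, edgeR). The NOD libraries were all higher. Acat2 was higher (0.75) and Soat1 lower (-0.47, adjusted p = 0.044, edgeR). Acat2 was lost without B6g7 library 1 or 3 or NOD library 3, and Soat1 without B6g7 library 1 or 2 or NOD library 1 or 2.

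**Figure D2:**
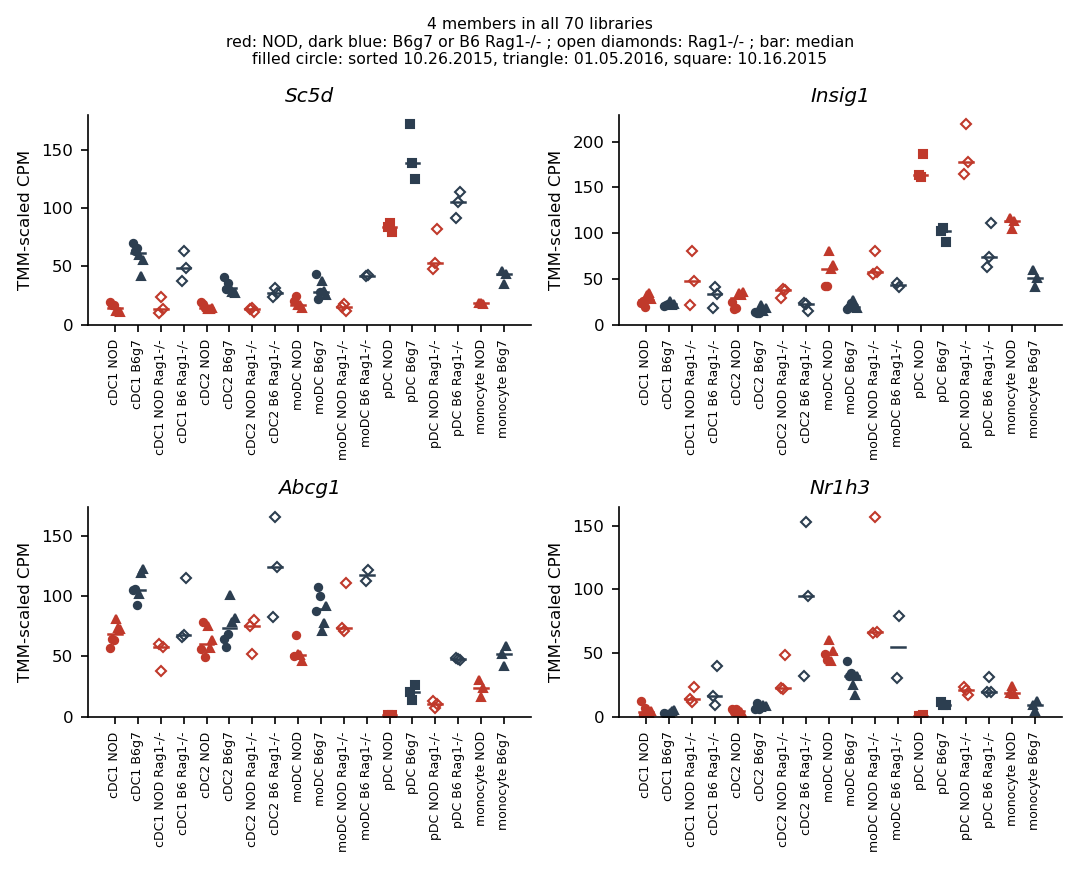
CPM of Sc5d, Insig1, Abcg1 and Nr1h3 (y axes, from 0) in each of the 70 libraries (points) of the 18 groups (x axes), with NOD in red and its reference strain in dark blue, and the group median as a bar. Open diamonds are Rag1-/- libraries. Sc5d lies lower in NOD in every pair, and Abcg1 and Nr1h3 lie near 0 in NOD pDC.

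The strain effect was unequal over the 5 Rag-sufficient sorts for 19 of the 33 members (edgeR F test of the strain effects, 23.7% of all genes called). Without a term for sort date 9 were called. By F value Abcg1 (40.34, adjusted p = 1.5e-11), Cyp51 (25.89) and Hmgcs1 (18.76) came first. Srebf1, Scap, Lss and Tm7sf2 had the smallest F values, at 0.93 or less. The direct comparison of moDC with cDC1 was run because strain effects were already known, from these data, to differ in sign between cell types. Its counts are therefore a description and not independent support. It called 12 members, all with a higher strain effect in moDC, where 8.15% of all genes were called, 4.26% in that direction and 3.89% in the other. All 18 synthesis genes had a positive value, with a median of 0.77, and 10 of them were called.

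For Sqle the strain effect was 1.84 ± 0.31 log2 units higher in moDC than in cDC1 (adjusted p = 5.1e-05, edgeR), with 0.61 in moDC and -1.23 in cDC1. For Hmgcs1 it was 1.44 ± 0.21 higher (adjusted p = 4.4e-06, edgeR), with 0.33 in moDC and -1.11 in cDC1. For Cyp51 it was 1.35 ± 0.17 higher (adjusted p = 2.4e-07, edgeR), with 0.20 in moDC and -1.14 in cDC1. Hmgcs1 and Cyp51 were not called in moDC, and Sqle was at -0.02 there on 10.26.2015 alone. Median Hmgcs1 in moDC was 30.4 CPM in NOD and 27.8 CPM in B6g7 on 10.26.2015, and 77.4 and 46.5 CPM on 01.05.2016. For Cyp51 the medians were 38.5 and 42 CPM on the first date, and 66 and 47 CPM on the second. Sc5d, lower in NOD in both sorts, was 1.31 ± 0.18 higher in moDC (adjusted p = 1.1e-06, edgeR). Insig1 differed by 1.14 ± 0.17 and Insig2 by 0.65 ± 0.20, so the 2 brakes differed in the same direction as the enzymes. Without a term for sort date 6 members were called. With the replicate block the differences of Fdps (0.87, adjusted p = 0.13), Insig2 (0.54, adjusted p = 0.16) and Nsdhl (0.47, adjusted p = 0.22) did not pass (edgeR).

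**Figure D3:**
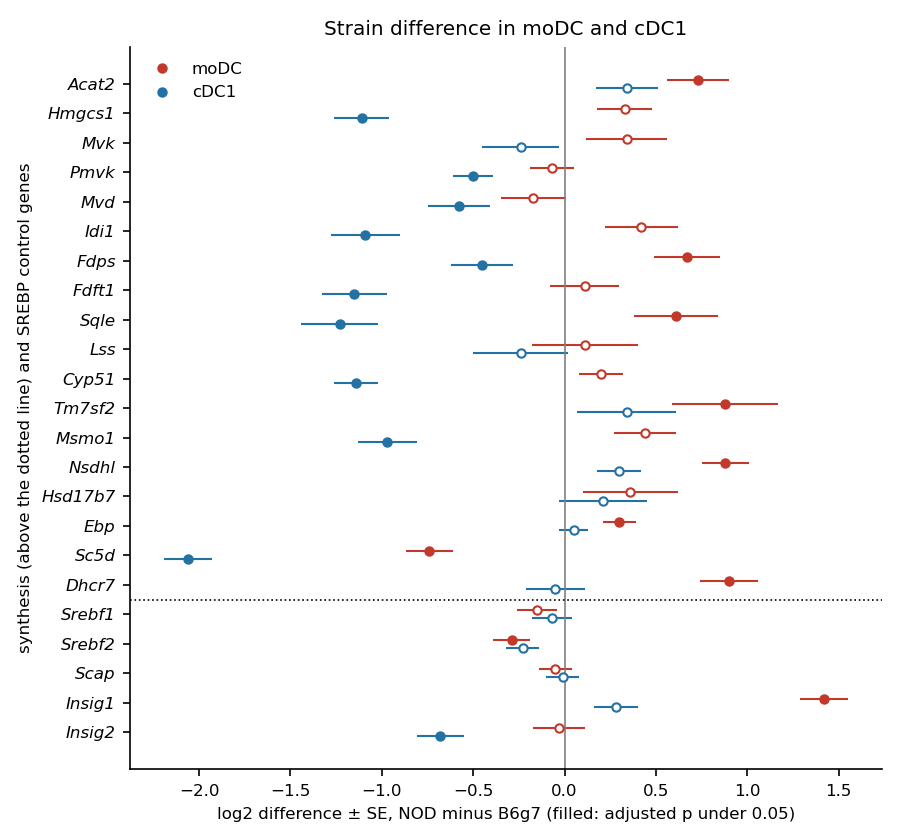
Log2 strain difference, NOD minus B6g7, with its SE (x axis) for each synthesis gene and, under the dotted line, each SREBP control gene (y axis), in moDC (red) and cDC1 (blue). Filled points have adjusted p under 0.05 (edgeR). For all 18 synthesis genes the moDC point lies right of the cDC1 point.

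Fewer strain differences were called in the Rag1-/- set, where the median SE of the members was 0.38 to 0.42, against 0.14 to 0.21 in the Rag-sufficient set. Its sort dates were not balanced over the strains in cDC2, moDC and pDC, and its fit held no date term. In those sorts strain and sort date cannot be fully told apart. In cDC1 0 members were higher and 1 lower in NOD Rag1-/- (1.65% of all genes called, 0.777% higher and 0.876% lower). In cDC2 0 were called by edgeR (2.33% of all genes, 1.07% higher and 1.26% lower), 8 were at an unadjusted p under 0.05, and DESeq2 and limma called 1 each. In moDC 1 was lower (1.48%, 0.579% higher and 0.899% lower). In pDC 1 was lower (4.53%, 1.90% higher and 2.64% lower), and without B6 Rag1-/- library 3 the count was 9.

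Sc5d was lower in each of these sorts. It had 9.77, 23.9 and 13.1 CPM in NOD Rag1-/- cDC1, against 37.5, 63.3 and 48.4 CPM in B6 Rag1-/- cDC1, a log2 difference of -1.67 ± 0.30 (adjusted p = 0.0034, edgeR). It had 15.2, 17.9 and 11.4 CPM in NOD Rag1-/- moDC, against 41.8 and 42.3 CPM in B6 Rag1-/- moDC, a difference of -1.50 ± 0.32 (adjusted p = 0.02, edgeR). The moDC call was lost in 7 of 13 alternative settings, with adjusted p-values between 0.0019 and 0.14 over them, among them leaving out either B6 Rag1-/- library or NOD Rag1-/- library 1 or 3. In cDC2 it had 13, 13.9 and 10.9 CPM in NOD Rag1-/-, against 24, 31.6 and 27.2 CPM in B6 Rag1-/-, and missed the threshold (-1.13 ± 0.30, adjusted p = 0.051, edgeR). In pDC the values were 47.6, 53.2 and 81.8 CPM in NOD Rag1-/-, against 91.5, 105 and 114 CPM in B6 Rag1-/- (-0.77 ± 0.29, adjusted p = 0.12, edgeR). The strains did not overlap for Sc5d in any of the 4 Rag1-/- sorts. Erythroid markers summed to 9780 to 12500 CPM in NOD Rag1-/- and 406 to 3780 CPM in B6 Rag1-/- cDC1. In moDC they summed to 7850 to 13500 and 442 to 585 CPM, and in cDC2 to 10300 to 19800 and 731 to 7650 CPM. In pDC the strains overlapped. Neutrophil markers summed to 678 to 13700 and 33.4 to 429 CPM in moDC, and overlapped in the other sorts. The part of these markers was not tested.

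Abcg1 had 13.1, 7.02 and 10.8 CPM in NOD Rag1-/- pDC, against 48.5, 48 and 47.3 CPM in B6 Rag1-/- pDC. The B6 libraries were close together and all far higher, and the log2 difference was -2.22 ± 0.32 (adjusted p = 0.00026, edgeR). Nr1h3 had 23.5, 20.6 and 17.1 CPM in NOD Rag1-/- pDC, against 19.1, 31.3 and 19.1 CPM in B6 Rag1-/- pDC, with overlap and a difference of -0.18 ± 0.57. The strain effect on Nr1h3 in pDC was 3.55 ± 0.81 higher in the Rag1-/- than in the Rag-sufficient set (adjusted p = 0.01, edgeR), and that on Abcg1 1.71 ± 0.38 higher (adjusted p = 0.0074, edgeR). These were the 2 members called in that comparison, where 1.35% of all genes were called, 0.940% higher and 0.412% lower. Red pulp macrophage markers, which differed between the strains in Rag-sufficient pDC, summed to 1280 to 2160 CPM in NOD Rag1-/- and 1430 to 2930 CPM in B6 Rag1-/- pDC, so they overlapped there, and monocyte and moDC markers summed to 1720 to 2440 CPM in NOD Rag1-/- and 3380 to 22700 CPM in B6 Rag1-/-. The pDC markers themselves were uneven, at 9630 to 22500 CPM in NOD Rag1-/- and 12600 to 44200 CPM in B6 Rag1-/- pDC. In Rag-sufficient pDC they summed to 22300 to 24800 CPM in NOD and 25000 to 28400 CPM in B6g7. Their part was not tested. Genotype, sequencing run, sort dates, control strain and cell number all differ between the sets and cannot be told apart.

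No member was called for a different strain effect between the sets by edgeR in cDC1 (0.210% of all genes, 0.0940% higher and 0.116% lower), cDC2 (1.11%, 0.166% higher and 0.947% lower) or moDC (0.586%, 0.116% higher and 0.470% lower). At an unadjusted p under 0.05 there were 6, 2 and 3 members. For members called in the Rag-sufficient set, the Rag1-/- set had the same sign for 11 of 13 in cDC1 (84.6%, against 89.3% of all called genes), 7 of 8 in cDC2 (87.5%, against 84.4%), 12 of 15 in moDC (80.0%, against 79.6%) and 7 of 7 in pDC (100%, against 85.2%). Insig1 was higher in NOD in all 4 Rag1-/- sorts by point estimate, from 0.57 in moDC to 1.18 in pDC, with none called. It had 165, 219 and 178 CPM in NOD Rag1-/- pDC, against 63.2, 73.6 and 111 CPM in B6 Rag1-/- pDC, without overlap (adjusted p = 0.073, edgeR). In NOD Rag1-/- cDC2, Nr1h3 had 22.8, 21.4 and 48.6 CPM, against 32.3, 153 and 94.9 CPM in B6 Rag1-/- cDC2, and Abca1 had 6.53, 6.65 and 12.3 CPM, against 3.13, 85.7 and 35.3 CPM. These spread widely and did not pass, beside red pulp macrophage markers of 1190 to 4630 CPM in NOD Rag1-/- and 2680 to 20800 CPM in B6 Rag1-/- cDC2.

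The synthesis genes were high in pDC. In pDC against cDC2, with NOD and B6g7 weighted equally, all 18 synthesis genes were higher, with a median log2 difference of 1.91. Of the 33 members 25 were higher and 7 lower, where 73.6% of all genes were called, 33.9% higher and 39.7% lower. Fdps had 512, 552 and 656 CPM in the NOD and 528, 535 and 624 CPM in the B6g7 pDC libraries, against 27.8 to 102 CPM in NOD and 21.9 to 126 CPM in B6g7 cDC2. The lowest pDC library was above the highest cDC2 library, and the difference was 3.47 ± 0.14. Tm7sf2 (3.41), Msmo1 (3.27) and Sqle (3.04) followed. Insig1 (2.69 ± 0.10), Npc2 (2.67 ± 0.06) and Npc1 (1.80 ± 0.08) were higher as well, while Srebf2 was lower (-0.48 ± 0.08), though 0.20 with the replicate block. In comparisons of cell types that block is a term for each replicate number within a strain, shared by the sorts. Same-numbered pDC and cDC2 libraries were not sorted on the same date.

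Of the 6 LXR genes 5 were lower in pDC than in cDC2 and 1 was higher. Abcg1 (-3.74 ± 0.16), Abca1 (-3.32 ± 0.62), Mylip (-1.95 ± 0.13), Nr1h3 (-1.09 ± 0.33) and Nr1h2 (-0.43 ± 0.07) were lower, and Lpcat3 was higher (0.22 ± 0.09, adjusted p = 0.032, edgeR). The storage enzyme Soat1 was lower as well (-2.42 ± 0.10). For Nr1h3 this rests on NOD, since with B6g7 libraries alone the value was 0.34. The pDC were sorted on a date of their own, so cell type and sort date cannot be told apart in this comparison.

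The lysosomal partners Npc1 and Npc2 had opposite signs between the conventional subsets. In cDC1 against cDC2, 18 members were higher and 5 lower, where 61.6% of all genes were called, 31.2% higher and 30.3% lower. Npc2, which binds cholesterol in the lysosome, had 341, 523 and 727 CPM in NOD and 345, 557 and 769 CPM in B6g7 cDC1, against 73.4, 127 and 183 CPM in NOD and 89.3, 133 and 216 CPM in B6g7 cDC2. No cDC2 library reached the cDC1 range, and the log2 difference was 2.00 ± 0.05. Its membrane partner Npc1 was lower in cDC1 (-1.27 ± 0.07), Fdps (1.28 ± 0.12), Nsdhl (1.21 ± 0.09) and Insig2 (1.03 ± 0.10) were higher, and Srebf2 was lower (-0.42 ± 0.07).

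In moDC against cDC2, 19 members were higher and 4 lower, where 50.0% of all genes were called, 26.6% higher and 23.4% lower. With B6g7 libraries alone 15 were called. Nr1h3 had 44.1 to 60.5 CPM in NOD and 17.4 to 43.5 CPM in B6g7 moDC, against 1.64 to 6.3 CPM in NOD and 5.75 to 10.4 CPM in B6g7 cDC2, a difference of 2.75 ± 0.23. Abca1 was higher too, with 14.2 to 23.8 CPM in NOD and 3.03 to 19.4 CPM in B6g7 moDC, against 0.838 to 5.65 CPM in NOD and 0.21 to 6.43 CPM in B6g7 cDC2 (2.19 ± 0.35). Abcg1 did not differ past the test. Npc2 (1.54 ± 0.05), Stard4 (0.91 ± 0.17), a carrier of cholesterol through the cytosol, and Sqle (0.81 ± 0.15) were higher, and Srebf2 (-0.86 ± 0.07), Npc1 (-0.76 ± 0.07) and Scap (-0.66 ± 0.06) lower.

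In monocytes against moDC, on the date they share, 12 members were higher and 9 lower, where 53.2% of all genes were called, 24.3% higher and 28.9% lower. The LXR genes Nr1h3 (-1.45 ± 0.31) and Abcg1 (-0.88 ± 0.13) and the regulator Srebf2 (-0.66 ± 0.09) were lower in monocytes. Npc2 (1.40 ± 0.07), Soat1 (1.15 ± 0.10), Tm7sf2 (0.99 ± 0.26), Insig1 (0.95 ± 0.12) and Insig2 (0.45 ± 0.14) were higher. With the replicate block Srebf2 was at 0.57 and Insig2 at -0.14. That block set monocyte libraries of 01.05.2016 beside same-numbered moDC libraries. Except for NOD library 3, those moDC libraries were sorted on 10.26.2015, so sort date enters these 2 values.

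**Figure D4:**
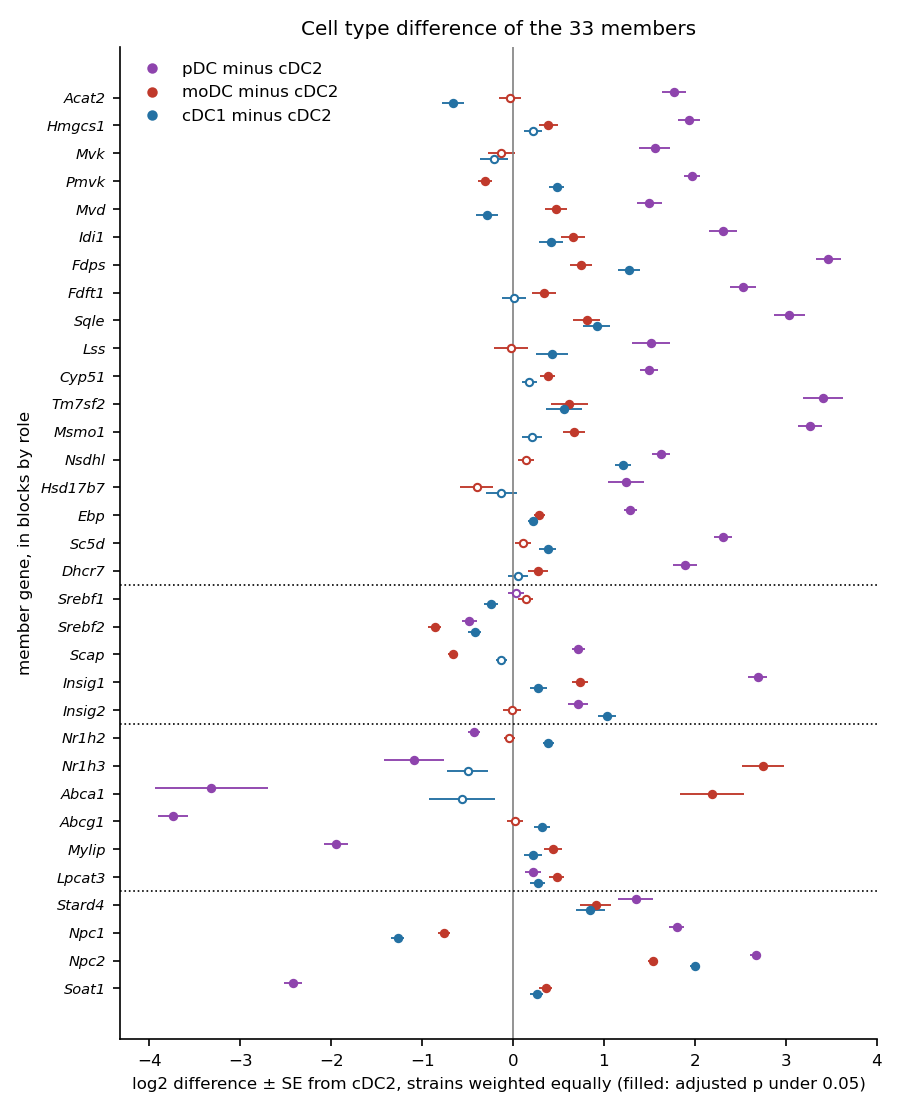
Log2 difference from cDC2 with its SE (x axis), NOD and B6g7 weighted equally, for each of the 33 members (y axis, in blocks by role), in pDC (purple), moDC (red) and cDC1 (blue). Filled points have adjusted p under 0.05 (edgeR). All 18 synthesis genes lie right of 0 in pDC, up to 3.47 for Fdps, whereas Abcg1, Abca1, Soat1 and Mylip lie far left.

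Srebf1 varied little between strains in any Rag-sufficient sort, with log2 differences from -0.21 in pDC to -0.07 in cDC1, none of them called. Monocytes were sorted on 01.05.2016 alone. On that date Srebf1 had 60.8, 72.1 and 58.9 CPM in NOD and 81, 69 and 61.8 CPM in B6g7 monocytes, and moDC had 52.7 to 64.9 CPM in NOD and 48.7 to 67 CPM in B6g7, so these sorts overlapped. Nr1h2, which encodes LXR beta, was called in none of the 5 sorts by edgeR, with log2 differences from -0.13 in monocytes to 0.16 in pDC. Srebf2 was called in moDC alone and Insig2 in cDC1 alone. In the authors' deposited table the log2 fold changes were -1.92 for Sc5d in cDC1, 1.496 for Insig1 in moDC and -3.58 for Abcg1 in pDC. That table did not match every call made here, and only examples are given. For 1 of the 2 Nr1h3 transcripts it had 0.74 in moDC (authors' adjusted p = 0.0018) and 1.44 in monocytes (0.0019). The other transcript had authors' adjusted p-values of 0.29 and 0.36. Nr1h3 did not pass here in either sort. Mylip in pDC (-0.79, authors' adjusted p = 0.28) and Mvd in cDC1 (-0.46, 0.24) were called here.

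Sort dates separated many members. In cDC1, 8 members were higher and 9 lower in all libraries of 01.05.2016 than in all libraries of 10.26.2015 within both strains, in cDC2 8 and 9, and in moDC 10 and 6. In all 3 sorts Dhcr7, Srebf1, Srebf2, Scap, Nr1h2, Mylip and Soat1 were higher on the later date and Pmvk, Fdps, Ebp, Insig2 and Npc2 lower. Srebf2, the SREBP of the cholesterol genes, had 222, 254 and 273 CPM on 01.05.2016 and 97, 101 and 115 CPM on 10.26.2015 in NOD cDC2, and 264, 271 and 273 CPM on 01.05.2016 and 76, 83 and 94.3 CPM on 10.26.2015 in B6g7 cDC2. Fdps went the other way, with 52.1, 61.4 and 62.8 CPM on 01.05.2016 and 148, 199 and 228 CPM on 10.26.2015 in NOD cDC1, and 70.4, 75.3 and 93.7 CPM on 01.05.2016 and 249, 259 and 278 CPM on 10.26.2015 in B6g7 cDC1. In the Rag-sufficient set both strains were sorted on each date, and its strain fits hold a term for it. The Rag1-/- strain fits hold no such term.

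**Figure D5:**
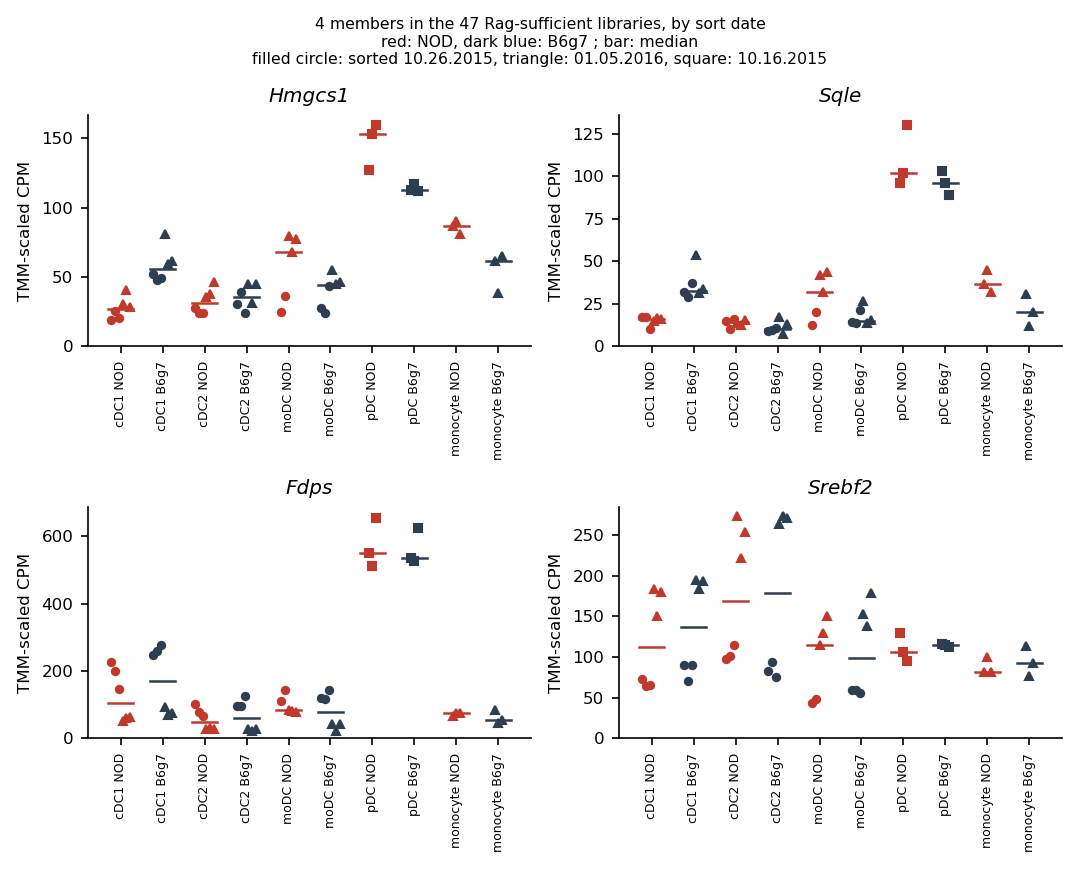
CPM of Hmgcs1, Sqle, Fdps and Srebf2 (y axes, from 0) in the 47 Rag-sufficient libraries (points) by group (x axes), NOD in red left of B6g7 in dark blue, with the group median as a bar. Circles were sorted on 10.26.2015, triangles on 01.05.2016 and squares on 10.16.2015. Srebf2 triangles lie above circles and Fdps triangles below them in cDC1, cDC2 and moDC of both strains.

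Related genes were counted beside the members. Of 28 other sterol handling genes tested 9 were higher and 0 lower in NOD moDC, 2 and 1 in cDC1, 4 and 3 in cDC2, 1 and 1 in pDC, and 3 and 0 in monocytes. Over all genes 30.3% were called in moDC (15.6% higher, 14.7% lower), 20.7% in cDC1 (10.5% and 10.3%) and 22% in cDC2 (11.7% and 10.3%). In pDC 12.6% were called (4.63% and 8.01%) and in monocytes 15.1% (7.80% and 7.26%). The moDC and cDC2 totals were near these shares, but the moDC calls were all higher. The cDC1, pDC and monocyte totals were below them. Rxra, the partner receptor of LXR, averaged 30.8 ± 14.4 CPM in NOD and 13.3 ± 6.79 CPM in B6g7 moDC (SD, n = 5 and 6), a log2 difference of 1.06 ± 0.21. Of 16 fatty acid genes of SREBP-1, 4 were higher and 0 lower in moDC, 1 and 1 in cDC1, 1 and 1 in cDC2, 0 and 1 in pDC, and 0 and 1 in monocytes. Each total was below the share of all genes called in that sort, though the 4 in moDC were all higher. Scd1, the stearoyl-CoA desaturase, averaged 40.3 ± 13.8 CPM in NOD and 6.50 ± 3.59 CPM in B6g7 moDC (2.63 ± 0.51), and 11.1 ± 4.91 CPM in NOD and 2.39 ± 2.46 CPM in B6g7 cDC2 (2.29 ± 0.52). None of either list was called in the Rag1-/- set by edgeR.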

How the data were processed

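Full-length cDNA was amplified from the RNA of sorted spleen cells before sequencing, per the labels' protocols. The authors deposited expected counts per RefSeq transcript, made with RSEM per the submitters' processing notes. The table is named for CPM, but 53.8% of its entries above 0 are fractional and its column totals differ between libraries. Aligner and genome build: not given in the sources used here. Transcripts were summed per gene (46 for the 33 members) and rounded, and 98 transcripts had no name. In the authors' deposited comparison tables the log2 fold changes and adjusted p-values served for gene names and 3 values set beside the report's own. Deposited tables of post-processed expression scores per library were not used.

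Genes reaching 1 CPM in 3 or more libraries were tested with edgeR 4.0.16 (quasi-likelihood, robust, R 4.3.3): 13406 in the 47 Rag-sufficient libraries (terms for cell type by sort date, 34 residual degrees of freedom), 13130 in the 23 Rag1-/- libraries (15) and 13830 over all 70 (49). All 33 members passed this filter. TMM factors ranged from 0.646 to 1.328. The threshold was 0.05 after Benjamini-Hochberg adjustment over all genes. The SE is the log2 difference divided by the square root of F. The script was tested on simulated data. Alternatives were limma 3.58.1, DESeq2 1.42.0, other size factors or none, no low count filter, other date terms or single dates, the replicate block, fits of 1 sort, 1 strain alone and leaving out each library. Values per library are given for up to 4 called members per strain comparison, those with the largest change and at least 5 CPM, and for regulators and LXR targets. Members and lists were chosen with earlier results of these data known.

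Same-numbered libraries correlated at 0.70 to 0.80 in Rag-sufficient cDC1, 0.64 to 0.80 in Rag-sufficient cDC2 and 0.18 to 0.46 in Rag1-/- cDC1. In these sorts same-numbered libraries share a sort date, so pairing by number and date cannot be told apart. In Rag-sufficient cDC1 and cDC2, 3 of 6 correlated best with their own number. In every other sort the lowest correlation was negative. Rag-sufficient moDC ranged from -0.57 to 0.74, with 4 of 5 pairs over 0.1. There 4 of the 5 pairs share a sort date.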

Additional observations from a re-analysis of the deposited data

Results flagged for a closer look

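Chance marks about 1 in 20 groups of normally spread values in the search for a library far from the others of its group. The groups examined pool both sort dates, which separate many members, so that rate need not hold here. Of the 66 member and group combinations examined 4 were marked. Abca1 was at 5.34 CPM in NOD cDC1 library 5, above the other 5. Abcg1 was at 68.1 CPM in NOD moDC library 2, above the other 4 but below every B6g7 library. Sqle was at 53.8 CPM in B6g7 cDC1 library 4, above the rest, and at 10 CPM in NOD cDC1 library 3, below the rest.

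The strain effect differed between moDC and cDC1, as moDC minus cDC1 on the log2 scale, for Sqle (1.84), Idi1 (1.52), Hmgcs1 (1.44), Msmo1 (1.41), Cyp51 (1.35), Sc5d (1.31), Fdft1 (1.27), Insig1 (1.14), Fdps (1.11), Dhcr7 (0.94), Insig2 (0.65) and Nsdhl (0.58), each past the edgeR test of the difference. The strain effect in pDC differed between the Rag1-/- and the Rag-sufficient set for Nr1h3 (3.55) and Abcg1 (1.71).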

How the results depend on the processing

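Leaving out 1 library at a time, the members called ranged over 12 to 14 in cDC1, 7 to 9 in cDC2, 11 to 18 in moDC, 6 to 12 in monocytes (6 without B6g7 library 2) and 5 to 6 in pDC. In the Rag1-/- set they ranged over 1 to 1 in cDC1, 0 to 0 in cDC2, 0 to 1 in moDC and 1 to 9 in pDC, with 9 without B6 Rag1-/- pDC library 3. Without the sort date term 4 were called in cDC2, 9 in moDC, 4 in monocytes and 3 in pDC, 6 in the moDC and cDC1 difference and 9 for unequal effects. Monocytes and pDC were each sorted on a single date, so there the term acts only through the spread estimated over all sorts. With libraries of 10.26.2015 alone 3 were called in cDC2 and 6 in moDC, where Soat1 (-0.07) and Sqle (-0.02) reversed. With the replicate block 7 members were called in monocytes and 0 in Rag1-/- moDC, where same-numbered libraries did not correlate. In Rag-sufficient cDC1 and cDC2 and in Rag1-/- cDC1 the block gave counts within 1.5 times the main one. There it removed the cDC2 call of Nr1h3 and the cDC1 calls of Fdps and Mvd but no other strain call. Under the block Srebf2 reversed in moDC (0.03), in monocytes against moDC (0.57) and in pDC against cDC2 (0.20), and Insig2 in monocytes against moDC (-0.14). In none of these comparisons did all same-numbered libraries share a sort date, so there the block and sort date cannot be told apart. With B6g7 libraries alone 15 members were called in moDC against cDC2, Dhcr7 was at -0.01 there and Nr1h3 at 0.34 in pDC against cDC2. Without scaling beyond library size Insig1 was at -0.02 in cDC1 against cDC2, Nr1h2 at -0.03 in monocytes against moDC, and 0 members were called in Rag1-/- moDC and 2 in Rag1-/- pDC. In the Rag1-/- set, fits of 1 sort alone called 3 in cDC1 and 1 in cDC2, DESeq2 1 in cDC2 and 4 in pDC, limma 1 in cDC2, and an additive date term 0 in moDC. The cause was not tested. In moDC, Soat1 was no longer called under 13 of 21 alternatives and Srebf2 and Sqle under 9 each.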
